A study of Mus musculus with 26 samples.

Results

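The mast cell protease cluster of mouse chromosome 14 was followed through fractions of EML cells, a mouse haematopoietic line named for its erythroid, myeloid and lymphoid potential. 9 genes of the cluster were described: the mast cell proteases Mcpt1, Mcpt2, Mcpt4, Mcpt8 and Mcpt9, the chymases Cma1 and Cma2, and the granzymes Gzmb and Gzmc. They were chosen by symbol, with all 10 of their probes, out of 18378 gene symbols and 41174 probes on the array. Cma1 had 2 probes and each of the other genes had 1. RNA was hybridised with 1 colour to 26 arrays in 3 sets. In the first set EryCP, CR Sca1lo and Sca1hi cells, fractions sorted on Sca1, CD34 and cKit, had 3 arrays each. In the second set Ediff cells, which were CD34- and cKit- cells obtained when EryCP differentiated under erythropoietin (Epo), had 3 arrays, and EryCP cells measured again (EryCP repeat) had 3. In the third set CD34- CD103- Epo cells, obtained by Epo-driven differentiation, had 3 arrays, and CD34- CD103- and CD34+ CD103- cells had 4 each. CD103 is an integrin alpha chain whose gene is Itgae. Sample titles of the third set begin with EMLe2 and those of the other sets with EML, and the titles do not explain the prefix. The prefix coincides with array set and cannot be told apart from it. No genotype, promoter or transgene was named for any group, all groups came from 1 cell line grown with horse serum and medium conditioned by cells that make stem cell factor (SCF), and the sources used here give neither Epo dose and time nor a later sort of CD34- CD103- Epo cells.

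Mast cells and basophils store serine proteases in granules that also hold histamine and proteoglycans, and release them when IgE receptors are crosslinked. In the mouse, chymases such as Mcpt4 and Cma1 are typical of connective tissue mast cells and Mcpt1 and Mcpt2 of mucosal mast cells, whereas Mcpt8 is used as a marker of basophils. Below, "the chymases" stands for Cma1, Cma2, Mcpt2 and Mcpt4, a grouping made after their values were seen, and the related Mcpt1 and Mcpt9 are given by name. Granzymes are the related proteases of cytotoxic lymphocytes, and Gzmb, which cleaves after aspartate, is also made by mast cells. These genes stand side by side because they arose by duplication, and the cluster is known for being used in part by mast cells, in part by neutrophils (Ctsg, cathepsin G) and in part by lymphocytes.

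A level is given as the log2 processed signal of a gene's probe relative to the 75th percentile of its array, so that 0 is the 75th percentile. That percentile lay at a signal of 419.6 to 1228, and 76% to 93.8% of probes were well above background. The 3 arrays of slide 2 in the first set had the highest such shares of that set, 91.3% for Sca1hi, 91.9% for CR Sca1lo and 93.8% for EryCP. Within groups, array pairs had r of 0.968 to 0.993 over all probes, 0 pairs were identical and 0 spots were saturated. The sorting genes followed the labels: Ly6a, which encodes Sca1, differed by -5.56 ± 0.14 in CR Sca1lo against Sca1hi, Cd34 by -1.77 ± 0.16 in CD34- CD103- against CD34+ CD103-, and Kit by -3.32 ± 0.12 in Ediff against EryCP repeat. Cd34 was not well above background on any Ediff array. Itgae was well above background on all arrays of both fractions labelled CD103-, at -0.35 to 0.014 in CD34- CD103- and -1.91 to -1.36 in CD34+ CD103- cells (1.54 ± 0.13, adjusted p = 2.07e-05). Differences are log2 values ± standard error from limma's 2-sided test, called at an adjusted p under 0.05 over all genes of a fit. The labels do not say that arrays of a group came from separate cultures, so the spread that the p-values measure may be technical. Where groups are said not to overlap, this describes their few arrays and is not a test. The share of all genes without overlap was not counted.

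The promoters of 4 of the genes are shown because members that moved together or apart are compared in the results: Mcpt1 and Mcpt4 have the most alike promoters of those matched, and Mcpt8 and Gzmb had the largest falls in Ediff. Each sequence is the 250 bases before the gene start from RefSeq, build GRCm38.p6, 5′ to 3′ in the direction of the gene, with TGTGGT (the RUNX motif, either strand) and TATAAA (the TATA box) in capitals. The Mcpt1 promoter lies at chr14:56017714-56017963 on the plus strand, and those of Mcpt4, Mcpt8 and Gzmb at chr14:56062311-56062560, chr14:56085198-56085447 and chr14:56262335-56262584 on the minus strand.
Mcpt1: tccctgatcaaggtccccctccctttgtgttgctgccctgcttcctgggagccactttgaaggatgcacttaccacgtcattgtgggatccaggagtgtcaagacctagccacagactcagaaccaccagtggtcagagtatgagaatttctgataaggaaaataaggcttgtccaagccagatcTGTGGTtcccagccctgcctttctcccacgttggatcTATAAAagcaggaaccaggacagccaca
Mcpt4: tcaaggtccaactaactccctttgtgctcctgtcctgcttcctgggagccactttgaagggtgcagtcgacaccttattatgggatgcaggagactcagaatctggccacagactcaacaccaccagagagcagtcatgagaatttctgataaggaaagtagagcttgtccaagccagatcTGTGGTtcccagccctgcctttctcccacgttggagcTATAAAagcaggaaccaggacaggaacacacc
Mcpt8: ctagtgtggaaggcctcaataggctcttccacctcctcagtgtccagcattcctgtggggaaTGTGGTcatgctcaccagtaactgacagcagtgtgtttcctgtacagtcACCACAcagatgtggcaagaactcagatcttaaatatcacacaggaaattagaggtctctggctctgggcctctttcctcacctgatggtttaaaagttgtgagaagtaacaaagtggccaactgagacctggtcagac
Gzmb: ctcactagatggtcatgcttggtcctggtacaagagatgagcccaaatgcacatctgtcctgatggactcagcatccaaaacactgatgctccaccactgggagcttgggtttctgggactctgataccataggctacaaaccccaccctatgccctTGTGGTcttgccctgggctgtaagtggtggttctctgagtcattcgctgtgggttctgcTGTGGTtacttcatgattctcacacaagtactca
Promoters were matched for 7 of the 9 genes, all but Mcpt2 and Cma2. Of their 21 pairs only Mcpt1 and Mcpt4 aligned over at least 200 columns, with 209 of 242 columns identical (86.4%). Both hold TGTGGT, at positions -65 to -60 before the start in Mcpt1 and -69 to -64 in Mcpt4, followed by TATAAA, at -28 to -23 in Mcpt1 and -32 to -27 in Mcpt4. TGTGGT was found in 5 of the 7 promoters (Gzmb, Gzmc, Mcpt1, Mcpt4 and Mcpt8), against 14.2% of 27025 promoters of the same length, and TATAAA in 2 of 7 against 13%. The GATA factor letters AGATAA, the STAT factor letters TTCNNNGAA and the letters CATGTG of the M-box bound by Mitf were found in 0, 0 and 1 of the 7 (Gzmc), against 10.2%, 7.18% and 12.2% of all promoters, on both strands. AGATAA is not the only form of the GATA site, and other forms were not counted. The Mcpt1 and Mcpt4 promoters printed above hold such a form, TGATAA. No match overlapped a match of another motif, and a match is a description of these letters, not a bound site.

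**Figure D1:**
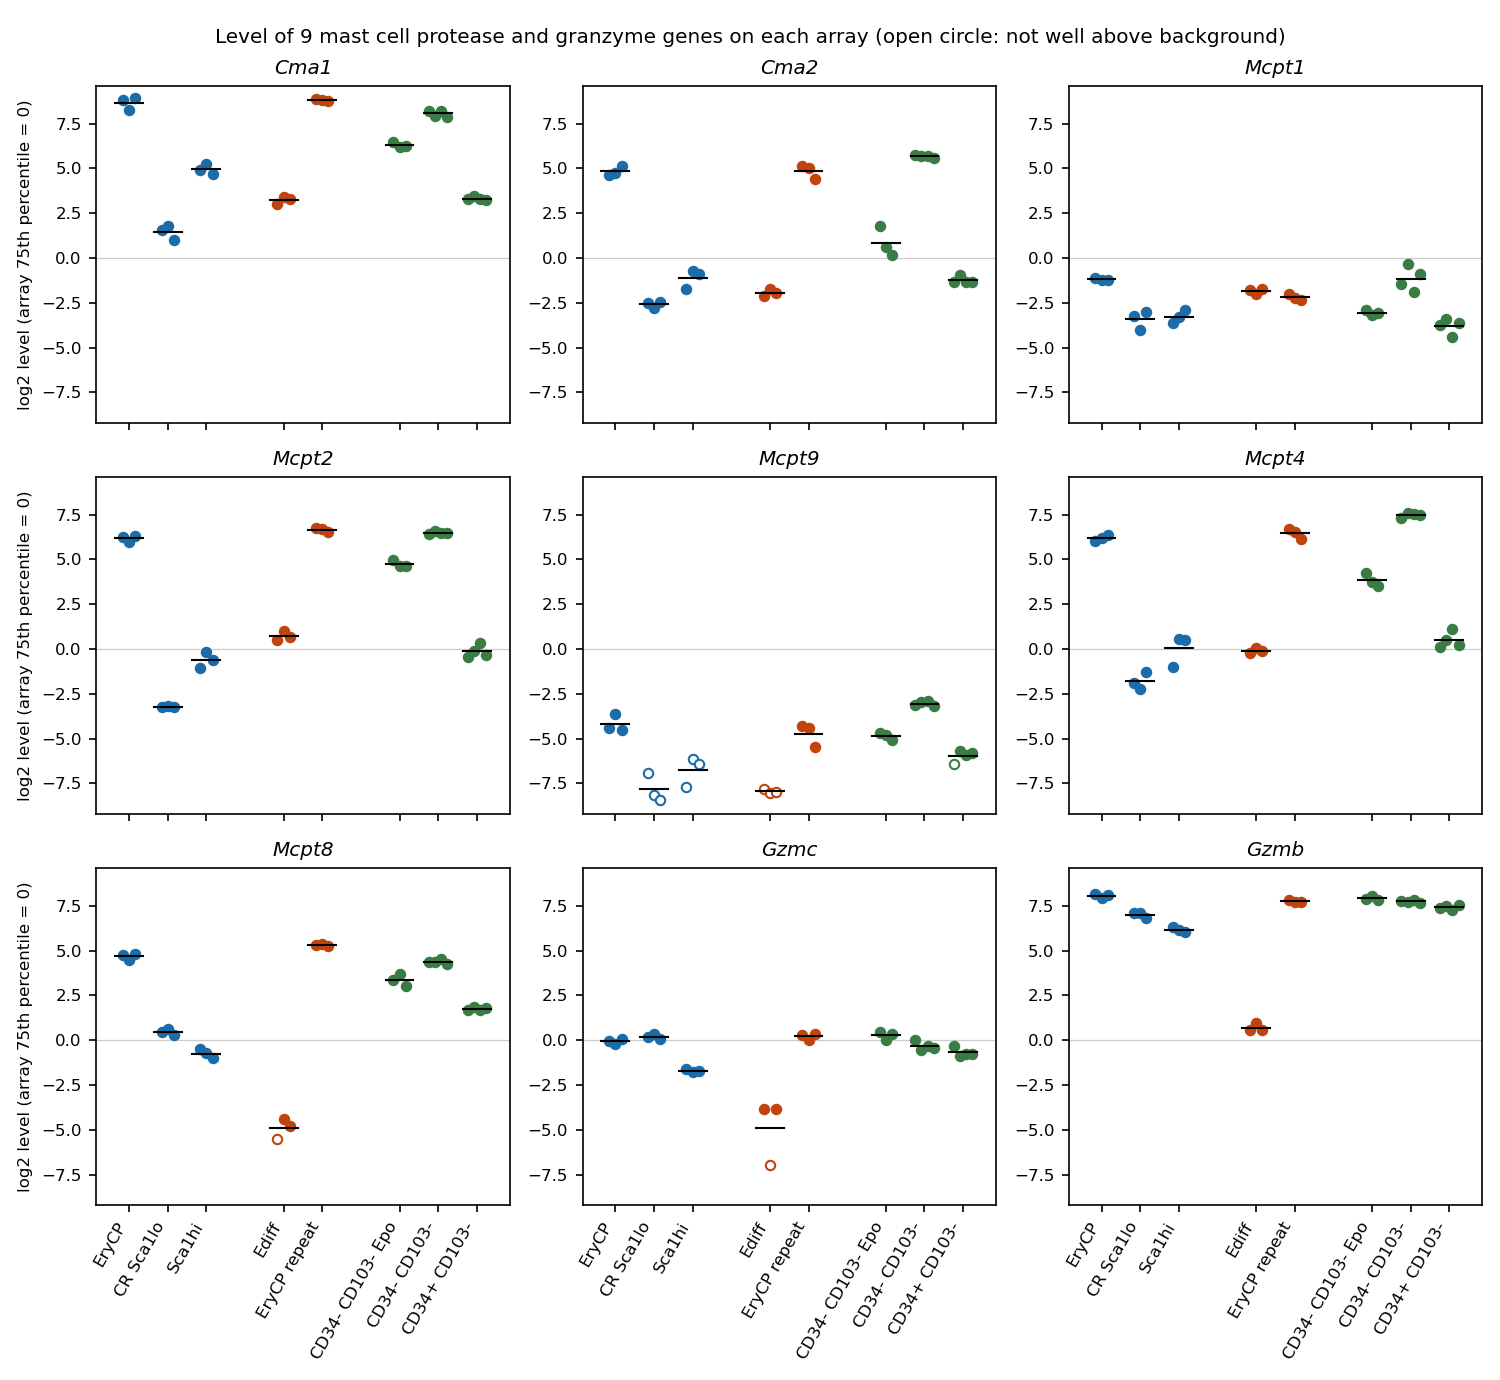
Level of each of the 9 genes on every array (y axis, log2 of the processed signal with the array's 75th percentile at 0), with the groups of each of the 3 array sets on the x axis and open circles for signals not well above background. Cma1, Cma2, Mcpt2 and Mcpt4 are high in EryCP, EryCP repeat and CD34- CD103- cells and lower in every other group of their sets (lines mark group means), while Gzmb stays between 6.02 and 8.16 except in Ediff, where it is 0.58 to 0.93.

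CR Sca1lo cells had less RNA of Cma1, Cma2 and Mcpt2 than Sca1hi cells and more granzyme and basophil protease RNA. Of the 9 genes 6 passed the test, 3 lower and 3 higher, beside 3.63% of all 26465 genes tested. Cma1, the alpha-chymase, was at 1.57, 1.81 and 1.03 in CR Sca1lo and 4.93, 5.22 and 4.71 in Sca1hi cells, with no overlap. It was 11.2-fold lower (-3.48 ± 0.27, n = 3 each, adjusted p = 0.000407), and its other probe showed the same order, at -0.78, -0.57 and -1.30 in CR Sca1lo and 2.69, 2.96 and 2.34 in Sca1hi cells. Mcpt2, a mucosal mast cell protease, was at -3.22, -3.18 and -3.22 in CR Sca1lo and -1.08, -0.16 and -0.62 in Sca1hi cells, a 6.02-fold fall (-2.59 ± 0.23, adjusted p = 0.000873). Cma2, the neighbour and close relative of Cma1, fell by 1.47 ± 0.28 on the log2 scale (adjusted p = 0.026). On the other side Gzmc, a granzyme of activated lymphocytes, was at 0.19, 0.33 and 0.063 in CR Sca1lo and -1.61, -1.76 and -1.74 in Sca1hi cells and rose 3.74-fold (1.90 ± 0.14, adjusted p = 0.000407). Mcpt8, the basophil protease, rose 2.33-fold (1.22 ± 0.18, adjusted p = 0.0096) and Gzmb 1.8-fold (0.85 ± 0.16, adjusted p = 0.0246), and the arrays of the fractions did not overlap for either gene. Mcpt4, the beta-chymase, did not overlap either, at -1.87, -2.20 and -1.27 in CR Sca1lo and -0.97, 0.58 and 0.50 in Sca1hi cells, but missed the threshold (-1.82 ± 0.42, adjusted p = 0.0615). Mcpt1 differed by -0.16 ± 0.29 (adjusted p = 1, 95% interval -0.82 to 0.51), and no array of either fraction measured Mcpt9 well above background.

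The calls of Cma2, Gzmb and Mcpt8 depended on single arrays. Leaving out 1 of the 6 arrays at a time ended the call of Cma2 for each array but Sca1hi replicate 1 (adjusted p of up to 0.123), of Gzmb for each but CR Sca1lo replicate 3 (up to 0.131) and of Mcpt8 for Sca1hi replicate 2 and CR Sca1lo replicates 1 and 2 (up to 0.0586). Spike-in scaling also ended the calls of Cma2 (adjusted p = 0.123) and Gzmb (0.0652), and leaving out the 3 arrays of slide 2 did the same (0.201 and 0.0562). Mcpt4 was called under 6 other settings, for example with slide as a block (adjusted p = 0.0159), and without Sca1hi replicate 1 (0.01), and each of the 3 within-slide differences was below 0 (-2.45 to -1.23). Of 12 measured genes of mast cell granules and mediators outside the cluster, Hpgds, a prostaglandin D synthase, fell (-1.78 ± 0.21, adjusted p = 0.00336), with a list median of -0.17 beside 0.037 over all genes. Of all genes 2.39% were called lower. Csf2rb and Csf2rb2, the beta chains of the IL-3 receptor family, also fell (-1.50 ± 0.20 and -1.63 ± 0.15, adjusted p = 0.00591 and 0.0011). In bulk RNA, fewer cells of a type and less RNA per cell cannot be told apart, here and below.

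EryCP cells had the highest levels of the chymases in the first set. Mcpt9 was not well above background in the other fractions. It is left out of the counts of the comparisons with EryCP, since it had to be higher in EryCP to be tested. Against CR Sca1lo 7 of the other 8 genes passed the test and all 7 rose, beside 5.01% of all genes, and the median difference of the 8 was 5.70 beside -0.067 over all genes. Mcpt2 was at 6.25, 5.95 and 6.32 in EryCP and -3.22, -3.18 and -3.22 in CR Sca1lo cells, the largest rise of all 26465 genes. Mcpt4 ranked next, at 6.05, 6.20 and 6.34 in EryCP and -1.87, -2.20 and -1.27 in CR Sca1lo cells, 252-fold higher (7.98 ± 0.42, n = 3 each, adjusted p = 3.96e-05). Cma2 and Cma1 stood at ranks 4 and 5, Cma2 at 4.63, 4.76 and 5.12 in EryCP and -2.53, -2.79 and -2.44 in CR Sca1lo cells and Cma1 at 8.81, 8.27 and 8.91 in EryCP and 1.57, 1.81 and 1.03 in CR Sca1lo cells. No arrays of the fractions overlapped for these 4 genes. Mcpt8 rose to 4.73, 4.49 and 4.81 in EryCP against 0.48, 0.63 and 0.31 in CR Sca1lo cells (4.20 ± 0.18, adjusted p = 2.21e-05). Mcpt1, the other mucosal mast cell protease, was 4.76-fold higher (2.25 ± 0.29, adjusted p = 0.00294), at -1.12, -1.21 and -1.21 in EryCP and -3.22, -4.04 and -3.03 in CR Sca1lo cells. Gzmb was at 8.16, 7.92 and 8.09 in EryCP and 7.12, 7.12 and 6.80 in CR Sca1lo cells, bright in both (2.07-fold, 1.05 ± 0.16, adjusted p = 0.00683). Gzmc was the exception, at -0.035, -0.20 and 0.073 in EryCP and 0.19, 0.33 and 0.063 in CR Sca1lo cells (-0.25 ± 0.14, 95% interval -0.58 to 0.08, adjusted p = 0.592). Within each of the 3 slides, which hold 1 array of each fraction, Gzmc was lower in EryCP (-0.27 to -0.23), and it was called lower with slide as a block (adjusted p = 0.0479).

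Mcpt9, a mast cell protease first known from the uterus, passed the filter on dim probes only through EryCP. It was at -4.39, -3.62 and -4.52 in EryCP, and at -6.94, -8.15 and -8.42 in CR Sca1lo and -7.69, -6.14 and -6.42 in Sca1hi cells, where no array measured it well above background. It was at least 3.43-fold higher in EryCP than in CR Sca1lo (adjusted p = 0.00482) and at least 3.28-fold higher than in Sca1hi (adjusted p = 0.0223), but since the filter fixed the direction neither p is evidence of it. The bound puts a dim array at the lowest signal that array measured well above background, or at the signal of Mcpt9 itself where that was larger. Both calls ended when the 3 arrays of slide 2 were left out (adjusted p = 0.0992 against CR Sca1lo and 0.148 against Sca1hi), and the one against Sca1hi also without Sca1hi replicate 1 or any 1 EryCP array (adjusted p of up to 0.0753).

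Against Sca1hi cells all 8 genes other than Mcpt9 were higher in EryCP, beside 6.49% of all genes called, with a median difference of 4.57 beside -0.028 over all genes. Mcpt2 was 111-fold higher (6.79 ± 0.23, adjusted p = 3.93e-06), Mcpt4 71.5-fold (6.16 ± 0.42) and Cma2 61.9-fold (5.95 ± 0.28), at ranks 5, 6 and 7 among the rises of all genes. Cma1, which Sca1hi cells already held at 4.71 to 5.22, was 13.1-fold higher (3.71 ± 0.27, adjusted p = 0.000104). The 3 fractions thus stood in the order EryCP, Sca1hi, CR Sca1lo for Cma1, Cma2 and Mcpt2, with both steps past the test, and in the order EryCP, CR Sca1lo, Sca1hi for Mcpt8 and Gzmb. For Gzmc, EryCP and CR Sca1lo overlapped and both were above Sca1hi (1.65 ± 0.14 and 1.90 ± 0.14). The comparisons share their EryCP, CR Sca1lo or Sca1hi arrays, so their values are not independent.

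Other genes of mast cell granules rose with the cluster in EryCP. Of the 12 measured, 7 were higher than in CR Sca1lo (list median 1.25) and 6 higher than in Sca1hi (1.06), beside all-gene medians of -0.067 and -0.028. Beside the counts of this paragraph, 2.75% of all genes were called higher and 2.26% lower than in CR Sca1lo. Against Sca1hi 3.21% were called higher. Hdc, which makes histamine, was at 5.97 to 6.28 in EryCP and -1.68 to -1.57 in CR Sca1lo cells (7.75 ± 0.19, adjusted p = 1.14e-06). The tryptases Tpsg1 (4.24 ± 0.42) and Tpsb2 (3.23 ± 0.53) and the IgE receptor beta chain Ms4a2 (3.95 ± 0.40) also rose, at adjusted p = 0.000763, 0.00992 and 0.000851. The 5 that did not pass were Fcer1a, Fcer1g, Alox5, Ltc4s and Cpa3, the mast cell carboxypeptidase, which was at 7.46 to 7.99 in EryCP and 7.37 to 7.89 in CR Sca1lo cells (0.10 ± 0.23, adjusted p = 1). Of 14 lineage factors of mast cells and basophils 6 rose and 2 fell against CR Sca1lo. The risers were Gata1 (3.81 ± 0.19), Gata2 (2.33 ± 0.18), Mitf (1.67 ± 0.14), the IL-33 receptor Il1rl1 (2.87 ± 0.14), Csf2rb and Csf2rb2, and those that fell were Gfi1 and Cebpa (-1.14 ± 0.14). Erythroid markers moved the same way, with 5 of 9 higher, for example Klf1 (4.39 ± 0.25), and their summed linear level was 7.04 to 9.57 in EryCP against 0.823 to 1.44 in CR Sca1lo cells. Of 8 mast cell markers 5 rose, with a list median of 2.27. Their summed level, to which the bright Cpa3 adds most, was 338 to 452 in EryCP against 198 to 271 in CR Sca1lo and 219 to 334 in Sca1hi cells. All 8 were well above background on every array of the set, 5 of them are also in the granule list, and the part of a change in cell mixture was not tested. Of 9 tested markers of cytotoxic lymphocytes 0 passed limma's test (1 at an unadjusted p under 0.05), with a list median of -0.088. A summed level, here and below, is over all listed markers with a probe, tested or not, and is set mostly by the brightest. The 12 cytotoxic lymphocyte markers with a probe had a summed level of 24.1 to 36.1 in EryCP against 40.5 to 56.5 in CR Sca1lo cells. Of 8 tested neutrophil markers S100a8 and S100a9 rose and Mpo fell, with a list median of 0.19. The 10 with a probe had a summed level of 142 to 219 in EryCP against 371 to 539 in CR Sca1lo cells.

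**Figure D2:**
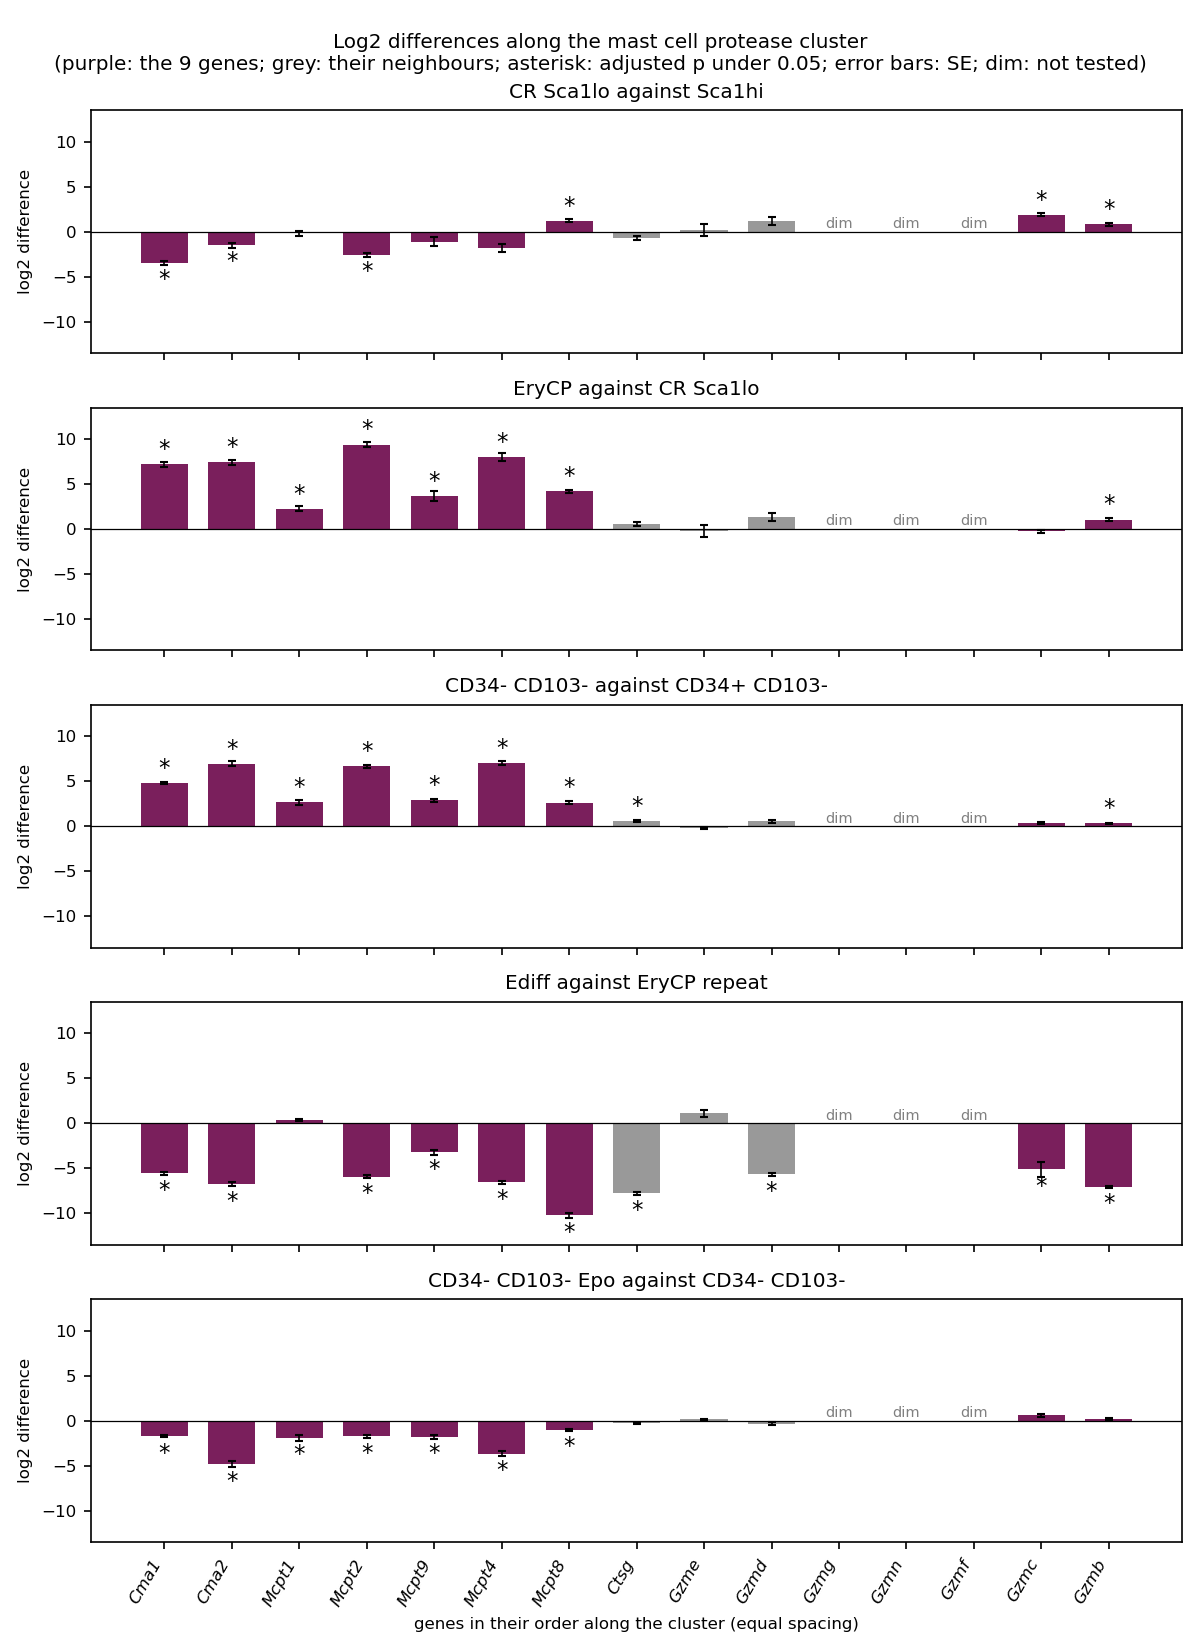
Log2 differences along the cluster (y axis, bars with standard errors) for the 9 genes in purple and their neighbours in grey, in cluster order on the x axis, 1 panel per comparison, with an asterisk where the adjusted p was under 0.05. Cma1, Cma2, Mcpt2 and Mcpt4 rise by 7.19 to 9.38 in EryCP against CR Sca1lo, while Ctsg, Gzme and Gzmd carry no asterisk there.

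In CD34- CD103- cells the chymases stood far above their levels in CD34+ CD103- cells. Of the 9 genes 8 passed the test and all 8 were higher, beside 12.1% of all 27360 genes, with a median difference of 2.9 beside -0.046 over all genes. Mcpt4 was at 7.33, 7.62, 7.53 and 7.51 in CD34- CD103- and 0.11, 0.53, 1.1 and 0.23 in CD34+ CD103- cells, 128-fold higher (7.00 ± 0.22, n = 4 each, adjusted p = 1.79e-08). Cma2 was at 5.77, 5.67, 5.72 and 5.59 in CD34- CD103- and -1.32, -0.95, -1.34 and -1.36 in CD34+ CD103- cells, 122-fold higher (6.93 ± 0.28, adjusted p = 8.37e-08). Mcpt2 was at 6.45, 6.60, 6.47 and 6.50 in CD34- CD103- and -0.42, -0.11, 0.32 and -0.33 in CD34+ CD103- cells (6.64 ± 0.15, adjusted p = 3.33e-09). These 3 genes held ranks 2, 3 and 4 among the rises of all genes, and no arrays of the groups overlapped. Cma1 was at 8.21, 7.95, 8.22 and 7.90 in CD34- CD103- and 3.27, 3.45, 3.28 and 3.23 in CD34+ CD103- cells (4.76 ± 0.10, adjusted p = 3.33e-09). Mcpt9, well above background on all 4 CD34- CD103- arrays and on 3 of 4 CD34+ CD103- arrays, rose 7.47-fold (2.90 ± 0.16, adjusted p = 1.05e-06). It is in the count above, but it did not pass the filter on dim probes through CD34+ CD103- cells. The filter thus favoured its rise, and its p is not separate evidence of the direction. Mcpt1 rose 6.29-fold (2.65 ± 0.31, adjusted p = 0.000254), at -1.45, -0.33, -1.93 and -0.92 in CD34- CD103- and -3.76, -3.42, -4.40 and -3.65 in CD34+ CD103- cells.

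The basophil protease also rose, and of the granzymes Gzmb passed the test. Mcpt8 was at 4.35, 4.36, 4.55 and 4.24 in CD34- CD103- and 1.66, 1.87, 1.68 and 1.78 in CD34+ CD103- cells, 6.18-fold higher (2.63 ± 0.13, adjusted p = 5.67e-07). Gzmb was at 7.75, 7.72, 7.85 and 7.67 in CD34- CD103- and 7.39, 7.51, 7.29 and 7.57 in CD34+ CD103- cells, without overlap (0.31 ± 0.088, adjusted p = 0.0454). That call ended without any 1 array but CD34+ CD103- replicate 4 (adjusted p of up to 0.119), and with spike-in scaling the difference was 0.080 (adjusted p = 0.662). Gzmc overlapped between the fractions (0.35 ± 0.16, adjusted p = 0.212) but was called with slide as a block (adjusted p = 0.00681). Mast cell granule genes outside the cluster rose in 7 of 12 cases, led by Hdc (7.09 ± 0.13) and Tpsg1 (5.78 ± 0.28), and 1 fell, Ltc4s of leukotriene synthesis (-0.38 ± 0.11, adjusted p = 0.0425). Beside this count and those that follow, 5.94% of all genes were called higher and 6.12% lower in the same comparison. Of the lineage factors Gata1, Gata2, Mitf, Il1rl1, Csf2rb and Csf2rb2 rose and Gfi1, Cebpa and Spi1 fell. Erythroid markers rose in 5 of 9 cases, with a summed level of 3.39 to 5.33 in CD34- CD103- against 0.503 to 0.695 in CD34+ CD103- cells, and 5 of 8 mast cell markers rose, with a summed level of 359 to 374 in CD34- CD103- against 275 to 313 in CD34+ CD103- cells. Of 10 neutrophil markers 5 rose (Ctsg, Prtn3, S100a8, S100a9 and Lcn2) and Mpo fell. Their summed level was 307 to 346 in CD34- CD103- against 449 to 551 in CD34+ CD103- cells. Of 6 basophil markers 3 rose (Prss34, Cd200r3 and Il4). Their summed level was 6.97 to 8.07 in CD34- CD103- against 3.22 to 3.68 in CD34+ CD103- cells. Of 5 tested macrophage markers Lyz2 rose and Fcgr1 fell. The 6 with a probe had a summed level of 7.01 to 8.52 in CD34- CD103- against 3.13 to 3.42 in CD34+ CD103- cells. The part of these shifts in the differences of the 9 genes was not tested.

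The rises of both sorts were set against each other as the difference of CD34- CD103- against CD34+ CD103- minus that of EryCP against CR Sca1lo, in 1 fit of 20 arrays. Of the 8 genes other than Mcpt9 4 passed, all of them with a smaller rise in the third set, beside 0.66% of all 27879 genes. Mcpt2 rose by 6.64 in the third set and 9.38 in the first (difference -2.74 ± 0.27, adjusted p = 4.49e-05), the third most negative difference of all genes. Cma1 rose by 4.76 in the third set and 7.19 in the first (-2.43 ± 0.26, adjusted p = 0.000124), and Mcpt8 by 2.63 and 4.20 (-1.58 ± 0.22, adjusted p = 0.00161). Side by side, Cma1 stood at 7.90 to 8.22 in CD34- CD103- and 3.23 to 3.45 in CD34+ CD103- cells, and at 8.27 to 8.91 in EryCP and 1.03 to 1.81 in CR Sca1lo cells, but array set and group cannot be told apart in such levels. Gzmb also differed (-0.74 ± 0.16, adjusted p = 0.045), a call that ended without any 1 array but EryCP replicate 2 or CD34+ CD103- replicate 3 (adjusted p of up to 0.142). The differences of Mcpt4 (-0.98 ± 0.47), Cma2 (-0.50 ± 0.42), Mcpt1 (0.40 ± 0.46) and Gzmc (0.61 ± 0.22) did not pass, at adjusted p of 0.514 for Gzmc and 1 for the others, and that of Mcpt9 (-0.76 ± 0.52), which was not well above background in CR Sca1lo, turned to 1.75 in the deposited value table. Cd34 and Itgae differed between the steps as well: Cd34 fell by 1.77 in the third set and by 4.71 in the first (difference 2.95 ± 0.29, adjusted p = 4.49e-05), and Itgae rose by 1.54 and 3.67 (-2.12 ± 0.20, adjusted p = 4.02e-05), and their part in the difference was not tested.

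Ediff cells held far less of the cluster's RNA than EryCP repeat cells. Of the 8 genes other than Mcpt9 7 passed the test and all 7 fell, beside 55.9% of all 24703 genes called (38.9% higher and 17.1% lower). The median difference of the 8 was -6.24 beside 0.45 over all genes. Among these 8, Mcpt8 and Gzmc were well above background on 2 of 3 Ediff arrays and passed the filter on dim probes only through EryCP repeat. The filter thus favoured their falls, and their p is not separate evidence of the direction. Mcpt8 was at -5.54, -4.41 and -4.78 in Ediff, well above background on 2 of 3 arrays, and at 5.32, 5.38 and 5.25 in EryCP repeat. Its fitted difference of -10.23, the largest fall of all 24703 genes, thus rests in part on a signal near background. It was -9.91 without that array, -6.42 with normexp background correction followed by quantile scaling, and -8.48 in the deposited value table. Gzmb was at 0.58, 0.93 and 0.59 in Ediff and 7.81, 7.73 and 7.73 in EryCP repeat cells (-7.06 ± 0.12, n = 3 each, adjusted p = 1.33e-06). The promoters of these 2 genes did not align with each other over 200 columns. The chymases fell as well. Cma2 was at -2.14, -1.71 and -1.96 in Ediff and 5.14, 5.01 and 4.41 in EryCP repeat cells, 111-fold lower (-6.79 ± 0.22, adjusted p = 6.33e-06). Mcpt4 was at -0.25, 0.081 and -0.10 in Ediff and 6.69, 6.55 and 6.12 in EryCP repeat cells, 93.4-fold lower (-6.54 ± 0.18, adjusted p = 3.49e-06). Mcpt2 fell 61.2-fold (-5.93 ± 0.15, adjusted p = 3.04e-06) and Cma1 47.2-fold (-5.56 ± 0.12, adjusted p = 1.99e-06). Cma1 kept a level of 3.02, 3.39 and 3.30 in Ediff, well above the 75th percentile of all probes, against 8.85, 8.79 and 8.75 in EryCP repeat.

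Gzmc differed by -5.10 ± 0.86, with 1 Ediff array below the others (-3.82, -6.96 and -3.85 in Ediff, the lowest not above background, and 0.31, 0.0095 and 0.34 in EryCP repeat, adjusted p = 0.00401, and -4.05 without that array). Mcpt9, which passed the filter only through EryCP repeat, was not well above background on any Ediff array and was at least 2.37-fold lower (adjusted p = 0.000407, a direction that the filter fixed). Mcpt1 was the gene not called. It was at -1.77, -2.03 and -1.74 in Ediff and -2.02, -2.23 and -2.36 in EryCP repeat cells, with overlap (0.35 ± 0.13, 95% interval 0.022 to 0.68, adjusted p = 0.0662), and its sign turned with spike-in scaling (-0.58, adjusted p = 0.0308), while it was called higher without Ediff replicate 2 (0.44, adjusted p = 0.0322). Mcpt4, whose promoter is 86.4% identical to that of Mcpt1 over their aligned columns, fell by 6.54 in the same cells. Whether the Mcpt1 probe also binds RNA of another gene was not tested, since probe sequences were not used here. Spike-in scaling put the median difference of all genes at -0.49 instead of 0.45 and gave 1054 higher and 11049 lower calls instead of 9605 higher and 4212 lower, and the 7 genes called here, Mcpt9 aside, fell under it as well.

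Genes of mast cell granules fell alongside in 9 of 12 cases, with a list median of -4.08, where 17.1% of all genes fell and 38.9% rose. Cpa3 was at -1.71 to -1.02 in Ediff and 7.25 to 7.49 in EryCP repeat (-8.77 ± 0.19, adjusted p = 1.99e-06), Hdc fell by 7.47 ± 0.17 and Hpgds was at least 92.4-fold lower. The IgE receptor alpha chain Fcer1a (-0.33 ± 0.16, adjusted p = 0.111), Alox5 and Ltc4s did not pass. Serpinb1a, an inhibitor of granule serine proteases, fell by 7.93 ± 0.14 (adjusted p = 1.31e-06), and of 6 tested protease inhibitors 3 fell and 2 rose, 5 called in all where 55.9% of all genes were. Of 9 tested genes of granule storage and processing 6 fell, among them serglycin (Srgn, -1.99 ± 0.13), the proteoglycan that holds granule proteases, and the secretion GTPases Rab27a (-3.96 ± 0.11) and Rab27b (-3.78 ± 0.13), and the protease Lgmn rose (1.71 ± 0.12). Prss57, a neutrophil serine protease outside the cluster, was the 1 of 5 tested relatives that fell (-5.37 ± 0.12). All 9 erythroid markers rose, with a summed linear level of 784 to 825 in Ediff against 21.5 to 31.4 in EryCP repeat, while that of the 8 mast cell markers, of which 7 fell, was 15.8 to 19.5 in Ediff against 288 to 341 in EryCP repeat, and 8 of 8 stayed above background on all Ediff arrays. Of 8 tested neutrophil markers Ctsg, Mpo, S100a8 and S100a9 fell and Camp rose. The 10 neutrophil markers with a probe had a summed level of 1.19 to 1.5 in Ediff against 167 to 188 in EryCP repeat. Of 5 tested basophil markers Prss34 and Cd200r3 fell, where 17.1% of all genes fell, with a list median of -0.33. The 6 basophil markers with a probe had a summed level of 6.43 to 6.62 in Ediff against 8.57 to 10.5 in EryCP repeat. The part of any change in cell mixture in the falls of the members was not tested.

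CD34- CD103- Epo cells had less chymase RNA than CD34- CD103- cells, and granzyme RNA that did not pass the test. Of the 9 genes 7 passed and all 7 fell, beside 2.64% of all genes, with a median difference of -1.76 beside 0.085 over all genes. Cma2 was at 1.78, 0.62 and 0.14 in CD34- CD103- Epo and 5.59 to 5.77 in CD34- CD103- cells, 28.7-fold lower (-4.84 ± 0.30, n = 3 and 4, adjusted p = 7.77e-06) and rank 8 among the falls of all genes. Mcpt4 was at 4.26, 3.75 and 3.49 in CD34- CD103- Epo and 7.33 to 7.62 in CD34- CD103- cells, 12.6-fold lower (-3.66 ± 0.24, adjusted p = 1.03e-05). Mcpt2 was at 4.97, 4.66 and 4.63 in CD34- CD103- Epo and 6.45 to 6.60 in CD34- CD103- cells, 3.37-fold lower (-1.75 ± 0.16, adjusted p = 0.000163). Cma1 (3.38-fold, -1.76 ± 0.11, adjusted p = 9.76e-06) and Mcpt9 (3.53-fold, -1.82 ± 0.18, adjusted p = 0.000227) fell too, and the groups did not overlap for any of these 5 genes. Mcpt8 was at 3.34, 3.69 and 3.02 in CD34- CD103- Epo and 4.24 to 4.55 in CD34- CD103- cells, 2.03-fold lower (-1.02 ± 0.15, adjusted p = 0.00359). Mcpt1 fell 3.71-fold (-1.89 ± 0.34, adjusted p = 0.0148), a call that ended without CD34- CD103- replicate 4 or any 1 CD34- CD103- Epo array (adjusted p of up to 0.0742) and with slide as a block (0.0638). Neither granzyme was called. Gzmb was at 7.86, 8.05 and 7.84 in CD34- CD103- Epo and 7.67 to 7.85 in CD34- CD103- cells (0.17 ± 0.095, 95% interval -0.042 to 0.38, adjusted p = 0.408). Gzmc was at 0.46, 0.022 and 0.37 in CD34- CD103- Epo and -0.003, -0.53, -0.33 and -0.43 in CD34- CD103- cells, without overlap (0.61 ± 0.17, adjusted p = 0.0992), and was called higher with normexp background correction (adjusted p = 0.0353) and with slide as a block (0.0312).

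CD34- CD103- Epo cells still had more chymase RNA than CD34+ CD103- cells. Against these, 8 of the 9 genes were higher in CD34- CD103- Epo cells, beside 5.35% of all genes, with a median difference of 1.61 beside 0.042 over all genes. The count holds Mcpt9, which passed the filter on dim probes through the other groups of the set and not through CD34+ CD103- cells. Mcpt2 was 29.6-fold higher (4.89 ± 0.16, adjusted p = 2.62e-07), rank 2 of all rises, Mcpt4 10.2-fold (3.35 ± 0.24) and Cma1 8.03-fold (3.01 ± 0.11). Cma2, at 1.78, 0.62 and 0.14 in CD34- CD103- Epo and -1.32, -0.95, -1.34 and -1.36 in CD34+ CD103- cells, was 4.26-fold higher (2.09 ± 0.30, adjusted p = 0.00257). Mcpt1 was not called, though its arrays did not overlap, at -2.89, -3.19 and -3.06 in CD34- CD103- Epo and -3.76, -3.42, -4.40 and -3.65 in CD34+ CD103- cells (0.76 ± 0.34, adjusted p = 0.286). The small rises of Gzmb (0.48 ± 0.095) and Gzmc (0.96 ± 0.17) were not called with spike-in scaling (0.021, adjusted p = 0.899, and 0.51, adjusted p = 0.0928), and those calls also ended without CD34- CD103- Epo replicate 1 (0.0537 for Gzmb and 0.0542 for Gzmc) and, for Gzmb, without replicate 2 (0.0747), and that of Mcpt9 (1.08 ± 0.18) was 0.17 with normexp background correction (adjusted p = 0.232). For Cma1, Cma2, Mcpt2, Mcpt4 and Mcpt8 the order in the third set was thus CD34- CD103-, CD34- CD103- Epo, CD34+ CD103-, with both steps past the test and no overlap between neighbours.

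Of 9 erythroid markers 1 passed the test in CD34- CD103- Epo against CD34- CD103- cells, and it fell (Kel, -1.53 ± 0.15, adjusted p = 0.000279), Slc4a1 differed by 0.10 ± 0.12 and Hba-x by 0.095 ± 0.23, and their summed level was 2.03 to 2.46 in CD34- CD103- Epo against 3.39 to 5.33 in CD34- CD103- cells. Beside the counts of this paragraph, 0.76% of all genes were called higher and 1.88% lower in the same comparison. Of 12 mast cell granule genes 5 fell: Tpsg1 (-5.02 ± 0.30), Tpsb2 (-4.13 ± 0.19), Hdc (-2.54 ± 0.14), Hpgds (-1.34 ± 0.13) and Ms4a2 (-1.01 ± 0.16), with Cpa3 at -0.14 ± 0.082 (adjusted p = 0.409). The summed level of the 8 mast cell markers was 287 to 305 in CD34- CD103- Epo against 359 to 374 in CD34- CD103- cells. Of 10 neutrophil markers 4 fell, S100a8 (-5.66 ± 0.54), S100a9 (-5.47 ± 0.44), Prtn3 and Lcn2, and Mpo rose (0.72 ± 0.11). Of 6 basophil markers Cd200r3 and Il4 fell. Of 5 tested macrophage markers Adgre1 and Lyz2 fell. The 6 with a probe had a summed level of 1.98 to 2.01 in CD34- CD103- Epo against 7.01 to 8.52 in CD34- CD103- cells. The part of these shifts in the falls of the chymases was not tested.

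**Figure D3:**
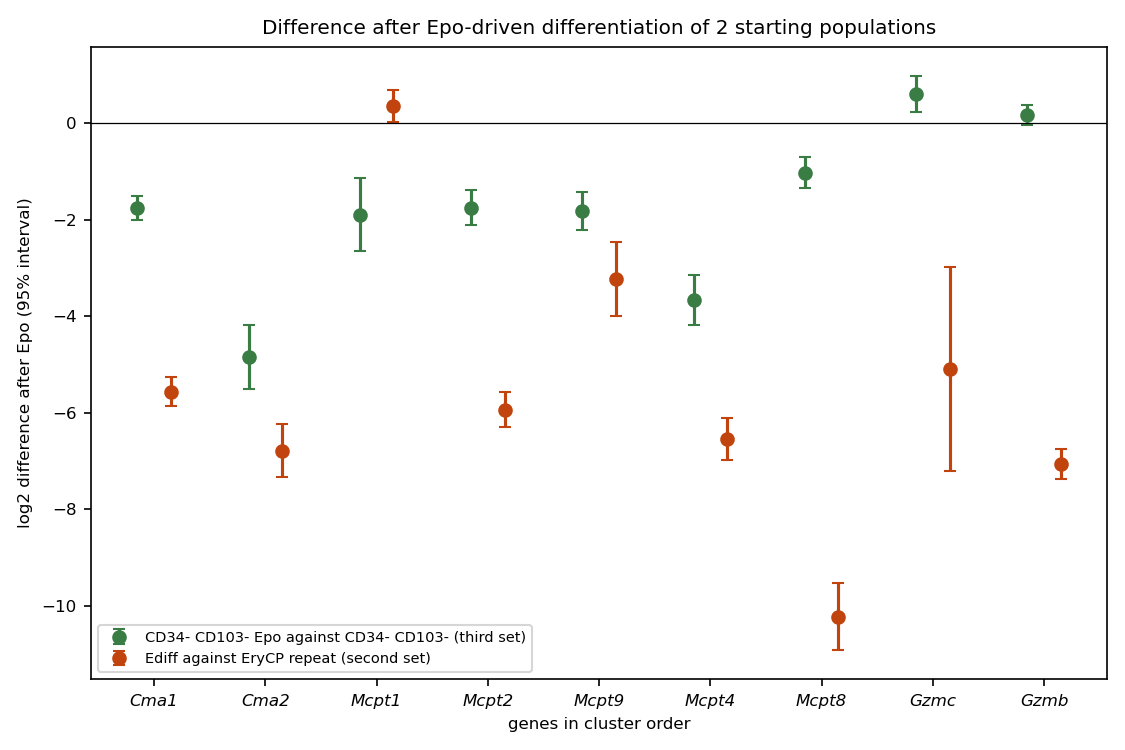
Log2 difference after Epo-driven differentiation (y axis, error bars are 95% intervals) of the 9 genes in cluster order (x axis), for CD34- CD103- Epo against CD34- CD103- cells and for Ediff against EryCP repeat cells. Gzmb lies at 0.17 in the first and -7.06 in the second, and Mcpt1 at -1.89 in the first and 0.35 in the second. The second value of Mcpt9 rests on Ediff signals that were not well above background.

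Both Epo responses were compared as the difference of CD34- CD103- Epo against CD34- CD103- minus that of Ediff against EryCP repeat, in 1 fit of 17 arrays. Of the 8 genes other than Mcpt9 all 8 passed the test, 7 with a smaller fall or none in the third set, beside 37.2% of all 27546 genes. Mcpt8 changed by -1.02 in the third set and by a fitted -10.23 in the second, which 1 Ediff array near background enters (9.21 ± 0.31, adjusted p = 6.82e-12). The difference was 8.89 without that array, 6.33 with normexp background correction and 7.37 in the deposited value table. Gzmb changed by 0.17 in the third set and -7.06 in the second (7.23 ± 0.15, adjusted p = 8.66e-14), and Gzmc by 0.61 and -5.10 (5.71 ± 0.79, adjusted p = 4.15e-05). The chymases fell in both. Mcpt2 changed by -1.75 in the third set and -5.93 in the second (4.18 ± 0.24, adjusted p = 2.12e-09) and Cma1 by -1.76 and -5.56 (3.81 ± 0.16, adjusted p = 1.14e-10). Mcpt4 changed by -3.66 in the third set and -6.54 in the second (2.89 ± 0.33, adjusted p = 5.60e-06), and Cma2 by -4.84 and -6.79 (1.95 ± 0.42, adjusted p = 0.00196), whose difference did not pass with normexp background correction (0.82, adjusted p = 0.112). Mcpt1 differed the other way, falling in the third set and not in the second (-2.24 ± 0.44, adjusted p = 0.000883). For Mcpt9, whose fall in Ediff is only a bound, the sign of the difference is not settled: the fitted 1.41 ± 0.35 (adjusted p = 0.00522) turned to -0.13 with normexp background correction and to -0.99 in the deposited value table (adjusted p = 0.0092). Starting cells, Epo culture, sorting after Epo and array set all differ between the responses and cannot be told apart.

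The cluster spans 26 annotated genes in RefSeq order, from Cma1 at one end to Gzmb at the other, of which 15 code for proteins and all 15 had a probe. The 6 that are not among the 9 genes lie together between Mcpt8 and Gzmc. Ctsg, next to Mcpt8 on the granzyme side, was at 6.99, 6.42 and 6.93 in EryCP, 6.34, 6.41 and 6.02 in CR Sca1lo and 6.99, 7.15 and 6.69 in Sca1hi cells, and no comparison of these passed (adjusted p of 0.165 or more). In CD34- CD103- against CD34+ CD103- it rose by 0.56 ± 0.085 (adjusted p = 0.00137) and in CD34- CD103- Epo against CD34- CD103- it differed by -0.32 ± 0.092 (adjusted p = 0.112). In Ediff it fell with the cluster, to -0.88, -0.91 and -0.69 against 7.03, 7.07 and 6.73 in EryCP repeat (-7.77 ± 0.13, adjusted p = 1.31e-06). Gzmd had 2 probes that disagreed, of which the brighter, named only by the mm8 probe design, was higher in EryCP than in Sca1hi (2.47 ± 0.44, adjusted p = 0.0122) and lower in Ediff than in EryCP repeat (-5.67 ± 0.17, adjusted p = 4.34e-06), while the dimmer stayed between -7.43 and -4.34 on all 26 arrays. Gzme passed in 0 of the 9 limma comparisons, with unadjusted p of 0.0331 in Ediff against EryCP repeat and 0.0202 in the difference of the Epo responses, and Gzmf, Gzmg and Gzmn were too dim to be tested. Granzymes of this cluster are close copies of each other, as are the Mcpt genes, and how far a probe binds RNA of a copy was not tested.

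Over the 26 arrays, with the mean of each array set removed, the levels of Cma1, Cma2, Mcpt2, Mcpt4 and Mcpt9 followed each other with r of 0.94 to 0.99 between any pair. Gzmb and Gzmc formed another group with Mcpt8, at r of 0.95 for Gzmb with Mcpt8, 0.88 for Gzmb with Gzmc and 0.82 for Gzmc with Mcpt8. Mcpt8 also followed the first 5 (0.79 for Mcpt2 to 0.83 for Cma2), whereas Gzmc did so weakly (0.45 for Mcpt2 to 0.49 for Cma2). Mcpt1 was the least alike, at 0.66 to 0.77 with the first 5, 0.36 with Mcpt8, 0.073 with Gzmb and 0.025 with Gzmc. These values are descriptions, since the arrays share 8 groups and a few large differences between groups set them. Mcpt9 was not well above background on any Sca1hi, CR Sca1lo or Ediff array, so its r rests in part on background signals.

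**Figure D4:**
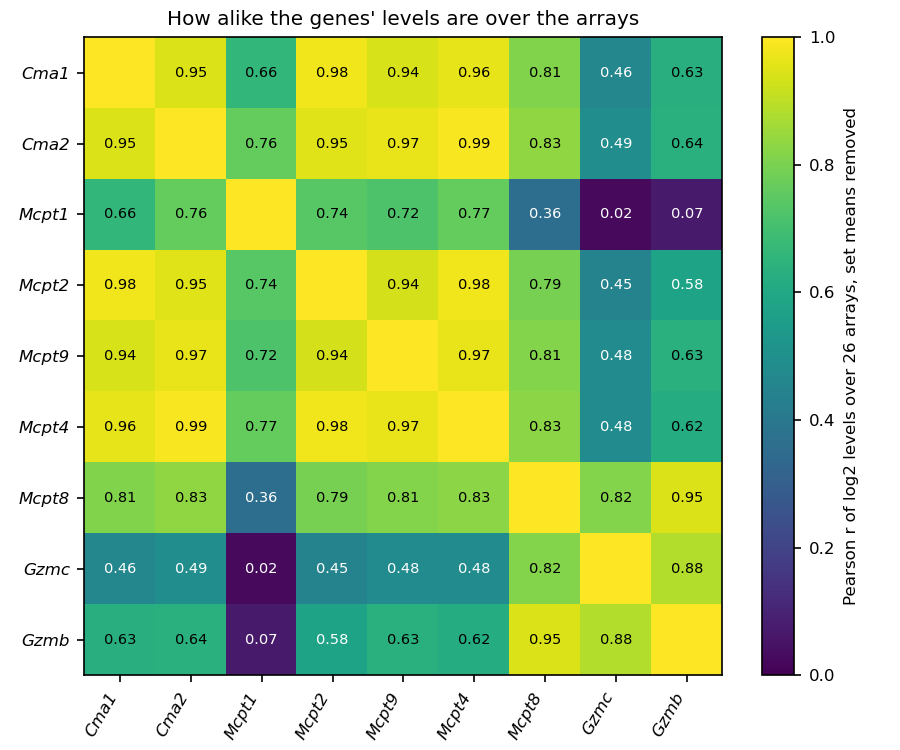
Pearson's r between the log2 levels of each pair of the 9 genes over 26 arrays after removing the mean of each array set, as a coloured grid with the genes in cluster order on both axes. Cma1, Cma2, Mcpt2, Mcpt4 and Mcpt9 form a block of 0.94 to 0.99, Gzmb, Gzmc and Mcpt8 a block of 0.82 to 0.95, and Mcpt1 has the lowest values, with Gzmc and Gzmb. The values of Mcpt9 rest in part on signals that were not well above background.

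The 2 genes outside the cluster most like each member were taken by the same r out of 15670 named genes. Kif1b, a kinesin motor gene, was most like Cma1 (r = 0.991) and Hdc most like Mcpt4 (0.981), followed by Pilra, a paired immunoglobulin-like receptor gene, which was also first for Cma2 (0.975) and Mcpt9 (0.964). Cyp11a1, which makes pregnenolone, was most like Mcpt8 (0.996), Paqr8 most like Gzmb (0.993), Atp8b2 most like Mcpt2 (0.981), Ppbp, the platelet basic protein gene, most like Gzmc (0.973) and Sapcd1 most like Mcpt1 (0.906). The likeness is over the same 26 arrays and rests on the same few groups, and that of Mcpt9 in part on signals not well above background.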

How the data were processed

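The 26 arrays were 1-colour Agilent arrays, deposited as scanner files whose processed signal is a linear intensity, background-subtracted by Agilent Feature Extraction 10.1.1.1 (EryCP, CR Sca1lo, Sca1hi, Ediff and EryCP repeat, probe design on mm8) or 10.7.1.1 (the other groups, mm9), per the file headers. A deposited table of the authors' log2 values served as an alternative. Its column medians were 7.09 to 7.29, its lowest correlation with the log2 processed signal of the same array was 0.958, and its centring is unknown. Symbols came from probe accessions through RefSeq (GRCm38.p6). Of 41174 probes 27071 had a symbol and 14103 stayed unnamed.

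Each array was divided by the 75th percentile of its processed signal before taking log2. Spots with an outlier mark, 48 to 446 an array, were left out, and a probe was kept if well above background (at least 0.5 of its spots) on every array of at least 1 group, with at least 2 arrays of each group measured. A gene was represented by its brightest kept probe. Tests used limma 3.58.1 in R 4.3.3 (lmFit and eBayes, Benjamini-Hochberg over all genes of a fit, threshold 0.05), 1 fit per array set and 1 for each difference between sets, and were tested on simulated data. All genes of the cluster were named, and list genes where they passed or were main examples. The genes, lists and comparisons were chosen with earlier results of these data known.

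Alternatives were quantile, spike-in (9 probes) and normexp (offset 50) scaling, the deposited table, no filter, other probe rules, slide as a block, all 26 arrays in 1 fit, eBayes with trend and robust, and leaving out each array. 1 more, without the 3 arrays of slide 2, was chosen after seeing the data. The number of arrays limits the precision.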

Additional observations from a re-analysis of the deposited data

Results flagged for a closer look

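In CD34+ CD103- cells, Cma2 was at -1.32, -1.34 and -1.36 on 3 arrays and at -0.95 on replicate 2, a gap to the others that is large for 4 arrays. 18 such groups of 4 arrays were examined, and chance marks about 1 in 20. The rise of Cma2 in CD34- CD103- cells was 6.89 to 7.03 when any 1 array was left out.

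The change under Epo differed between CD34- CD103- Epo cells (against CD34- CD103-) and Ediff cells (against EryCP repeat) for the 8 genes other than Mcpt9 in limma's test of the difference. It was 9.21 for Mcpt8, 7.23 for Gzmb, 5.71 for Gzmc, 4.18 for Mcpt2, 3.81 for Cma1, 2.89 for Mcpt4 and 1.95 for Cma2, and -2.24 for Mcpt1, whose sign was the opposite. That of Mcpt8 rests in part on 1 Ediff array near background. For Mcpt9, not well above background on any Ediff array, the fitted 1.41 has no settled sign and turned with normexp background correction and in the deposited value table.

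The rise in CD34- CD103- over CD34+ CD103- cells differed from that in EryCP over CR Sca1lo cells for 4 genes in limma's test of the difference, by -2.74 for Mcpt2, -2.43 for Cma1, -1.58 for Mcpt8 and -0.74 for Gzmb. Array set, sort and fraction cannot be told apart in these differences.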

How the results depend on the processing

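The count of the 9 genes called, Mcpt9 included, stayed within 1.5 times in all 9 comparisons under each alternative except 1 comparison: in CR Sca1lo against Sca1hi it was 6, and leaving out 1 array gave 3 to 6, with 3 without Sca1hi replicate 2 or CR Sca1lo replicate 1 or 2. Of the values tested under an alternative 1422 kept their side of the threshold, 64 lost and 13 gained the call. Sign changes of values called in neither fit stay among the 1422 and were not counted apart. 4 values turned with a call in the main fit or the alternative. Mcpt1 in Ediff against EryCP repeat was -0.58 with spike-in scaling. The Epo difference of Mcpt9 was -0.13 with normexp and -0.99 in the deposited table, and the difference of the CD34-sorted rises of Mcpt9 was 1.75 in that table. The cause was not tested. Among other changes, the Epo difference of Mcpt9 missed the threshold with all 26 arrays in 1 fit (adjusted p = 0.0521), and so did Mcpt9 (0.123) and Gzmc (0.411) in CD34- CD103- Epo against CD34+ CD103-. Gzmb in that comparison was lost with quantile scaling (0.12) and the deposited table (0.124). Gzmb in CD34- CD103- against CD34+ CD103- was lost with no filter on dim probes (0.0618) and with all 26 arrays (0.07), and its difference between the sorts with spike-in scaling (0.0903) and no filter (0.0646). Gzmc differed between the sorts with slide as a block (0.61, adjusted p = 0.0028). Within slides, each called gene kept the sign of its comparison on every slide that held both groups.

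Counts over all genes moved more. In the first set slide as a block gave 4740, 5282 and 5488 calls instead of 960, 1327 and 1717, normexp 2527, 3235 and 3108, the authors' values 2217, 2987 and 2888, all 26 arrays 3104, 3582 and 3760, spike-in scaling 420, 737 and 978, leaving out slide 2 418, 837 and 1126, and quantile scaling 1611 and 2308 in the comparisons that hold CR Sca1lo, each given in the order CR Sca1lo against Sca1hi, EryCP against CR Sca1lo and EryCP against Sca1hi. The share of higher calls in CR Sca1lo against Sca1hi was 34.1%, but 55.2% with slide as a block, 52.7% with all 26 arrays and 45% with normexp. In Ediff it was 69.5%, but 57.1% to 59% with normexp, the deposited table or quantile scaling. Spike-in scaling gave 595 higher and 3650 lower calls instead of 1625 and 1675 in CD34- CD103- against CD34+ CD103- (median of all genes -0.27), 9 and 492 instead of 208 and 513 in CD34- CD103- Epo against CD34- CD103-, 164 and 9131 instead of 765 and 698 against CD34+ CD103- (-0.41), 7448 and 1085 instead of 4011 and 6245 in the Epo difference and 63 calls instead of 184 in the difference of the sorts. In CD34- CD103- Epo against CD34- CD103- normexp gave 1175, trend and robust 1141 and all 26 arrays 457 calls instead of 721. The difference of the sorts had 306 to 770 calls with quantile scaling, normexp, the deposited table or slide as a block.

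By sample number, no paired analysis was possible because the numbers run on through each experiment and no groups compared share them. A match by slide was possible: slides 1, 2 and 3 each hold 1 array of Sca1hi, CR Sca1lo and EryCP, and slide as a block is the matched fit of that set. Low signal limits Mcpt9, which was not well above background in CR Sca1lo, Sca1hi and Ediff, and Gzmf, Gzmg and Gzmn. The genes most like each of the 9 shared both names with the reported pair in 15 of 45 checks under 5 alternatives, 1 name in 25 and 0 in 5.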

Other observations

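Serpinb1a, an inhibitor of neutrophil and mast cell serine proteases, moved in the direction of Cma1, Cma2 and Mcpt2 in these comparisons. It was lower in CR Sca1lo than in Sca1hi (-1.23 ± 0.19, adjusted p = 0.0115), higher in EryCP than in CR Sca1lo (1.91 ± 0.19, adjusted p = 0.000817), higher in CD34- CD103- than in CD34+ CD103- cells (1.42 ± 0.065, adjusted p = 2.44e-07) and lower in CD34- CD103- Epo than in CD34- CD103- cells (-0.51 ± 0.071, adjusted p = 0.00298). Against Sca1hi it did not pass in EryCP (0.68 ± 0.19, adjusted p = 0.0938). It was 1 of 6 tested inhibitors, and others moved differently. Serpina3f was lower in EryCP than in CR Sca1lo, and Serpina3f and Serpinb6b were lower in EryCP than in Sca1hi. Slpi was lower in CD34- CD103- than in CD34+ CD103- cells. Serpinb6b, like Serpinb1a, was lower in CR Sca1lo than in Sca1hi. Ctsc, the peptidase that activates granule serine proteases, was lower in CR Sca1lo than in Sca1hi (-0.64 ± 0.14, adjusted p = 0.0445) and higher in EryCP than in CR Sca1lo (0.81 ± 0.14, adjusted p = 0.0112), and differed by 0.15 ± 0.088 in CD34- CD103- against CD34+ CD103- cells (adjusted p = 0.368). Of its list of granule storage and processing, 9 genes were tested in the first set. Of these Rab27b was higher and Ctss and Lgmn were lower in EryCP than in Sca1hi, beside 3.21% of all genes higher and 3.28% lower. In CD34- CD103- against CD34+ CD103- cells 5 of 10 tested were higher and Lgmn was lower, beside 12.1% of all genes called. Basophil markers other than Mcpt8 rose in 3 of 6 cases in EryCP against CR Sca1lo, Prss34 (1.33 ± 0.20), Cd200r3 (3.77 ± 0.27) and Il4 (1.81 ± 0.17), beside 2.75% of all genes. Their summed level was 9 to 10.2 in EryCP against 2.76 to 3.15 in CR Sca1lo cells. In EryCP against Sca1hi 2 of 6 rose, Prss34 and Cd200r3, beside 3.21% of all genes. The summed level in Sca1hi cells was 7.21 to 8.00. The part of basophil markers in the rise of Mcpt8 was not tested.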
